A study of Homo sapiens with 23 samples.

Results

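The data described here are the peaks of LSD1 in SH-SY5Y cells with a control shRNA, before (day 0) and after (day 3) treatment with brain-derived neurotrophic factor (BDNF). All peaks of both deposited lists were taken: 16882 on day 0 and 20748 on day 3, together 37630 of the 52708 peaks in the 5 lists of the series used here. SH-SY5Y is an established human neuroblastoma cell line that takes on neuronal features under retinoic acid and BDNF. The labels' protocols give 10 µM retinoic acid for 4 days, followed by 50 ng/mL BDNF without serum for 3 days. Cells at day 0 had therefore received no BDNF, and the cells of both days carried the control shRNA. The antibody of both libraries was directed at LSD1 (ab-17721, Abcam), and each day has 1 library.

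LSD1, also called KDM1A, is a flavin-dependent enzyme that removes methyl groups from lysine 4 of histone H3. It acts largely within corepressor complexes that hold CoREST and histone deacetylases, and it is found at promoters and enhancers. Neurons also make a splice form with an added small exon, LSD1+8a. Whether the antibody used here separates the forms is not stated in the labels. A ChIP-seq peak is a stretch of the genome where sequenced fragments, here called tags, pile up, and its summit is the position of the highest pile.

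With 1 library per day there is no replicate check, and no difference between the days was tested. The 95% intervals given are exact and cover counting error only, since neighbouring peaks are not independent. The lists hold 539449 tags in peaks on day 0 and 1266603 on day 3, a ratio of 2.35. The sources used here do not give the reads of each library. Tags are given as deposited, so a count of peaks with more or fewer tags on day 3 includes any difference in depth, and tag ratios of subsets are read beside the ratio of all pairs. The title of the day 0 library carries a library number and that of day 3 does not, so a difference in library preparation cannot be told apart from the day. All coordinates are on hg19, as read from the chromosome names and the submitters' processing notes. An hg19 annotation was not used here, so peaks are given by position and not by gene.

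The LSD1 peak lists of the 2 days differed widely. Of the day 0 peaks, 8461 were overlapped by at least 1 bp by a day 3 peak (retained, 50.1%, 49.4 to 50.9) and 8421 were not (lost, 49.9%, 49.1 to 50.6). Of the day 3 peaks, 8320 overlapped a day 0 peak (retained, 40.1%, 39.4 to 40.8) and 12428 did not (gained, 59.9%, 59.2 to 60.6). These shares, 49.9% lost and 59.9% gained, are the background for every subset below. With the same number of peaks taken from each list by score, 44.1% (43.3 to 44.8) of day 0 and 43.2% (42.5 to 44.0) of day 3 peaks were retained. Shares of equally long lists must lie close together, so these values cannot show what the difference between the days went with. Lost and gained say only that a region is missing from the other day's list, not that LSD1 was absent from it. A second LSD1 list of day 0, from the knockdown cells described below, is shorter (10248 peaks) and overlapped 42.1% of day 0 peaks. Without replicates, a difference between lists of the same day cannot be told apart from a change between days.

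Lost peaks were the shortest class, and retained peaks of day 3 the longest. The median length was 782 bp (774 to 790) for lost peaks and 885 bp (877 to 892) for retained peaks of day 0. On day 3 it was 973 bp (967 to 980) for gained peaks and 1176 bp (1164 to 1187) for retained peaks. Tags followed the same order, with medians of 23 in lost and 29 in retained peaks of day 0, and 43 in gained and 64 in retained peaks of day 3. Retained peaks were also denser in tags: the median per kb was 31.8 against 29.1 for lost peaks, and 52.4 against 42.8 for gained peaks. A longer peak has more bases at which an overlap of 1 bp can fall, so length and class are not independent measures. The summit lay near the middle of the peak in all 4 classes, at a median of 0.506 of the length in retained peaks of day 0 and 0.503 in lost, retained day 3 and gained peaks.

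**Figure D1:**
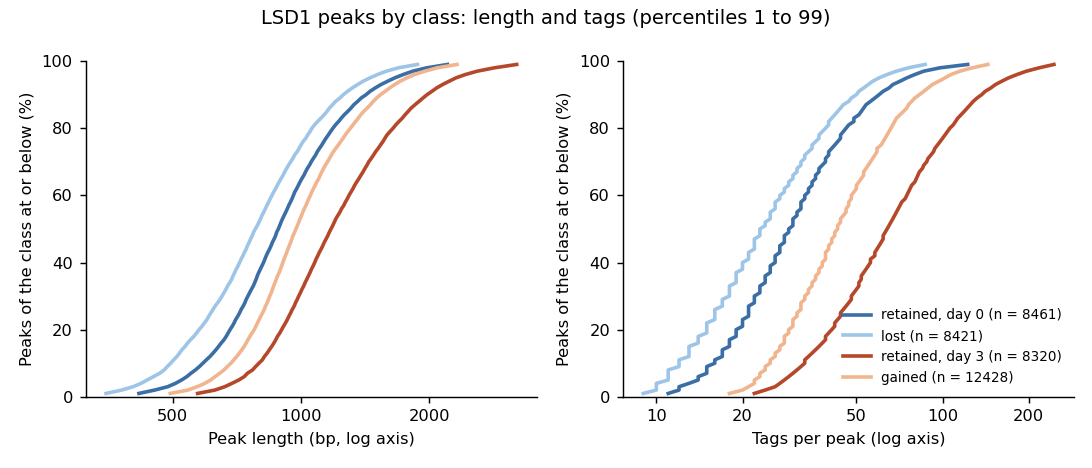
Share of the peaks of each class (vertical axis, percent) at or below a given length (left, bp) or number of tags (right), both on log axes, from percentile 1 to 99. At every height the lost peaks lie left of the retained peaks of day 0, and the gained peaks left of the retained peaks of day 3.

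The share of retained peaks was lowest among peaks with the fewest tags and highest among those with the most, over a wider range on day 3. Among day 0 peaks with 9 to 13 tags, 24.7% (22.7 to 26.8) were retained, and among those with at least 56 tags 64.7% (62.4 to 67.1). In between, the day 0 share was 39.1% at 14 to 17 tags and 46.4% at 18 to 20 tags. From 21 to 55 tags it was nearly level, from 51.8% at 21 to 23 tags to 57.9% at 43 to 55 tags, with 54.7% at 37 to 42. On day 3 it was higher in each of the 10 bins of tags than in the one before. Among day 3 peaks with 12 to 27 tags, 16.2% (14.7 to 17.8) were retained, and among those with at least 109 tags 77.0% (75.1 to 78.8). A peak with many tags on day 0 was thus still lost in more than 1 of 3 cases. Lost peaks held 44.1% of all day 0 tags in peaks, and gained peaks held 48.8% of those of day 3.

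In 8053 cases exactly 1 day 0 peak overlapped exactly 1 day 3 peak, and these pairs allow the same region to be compared. The peak was longer on day 3 in 6556 pairs (81.4%, 80.5 to 82.3) and shorter in 1490. Its median length ratio of day 3 to day 0 was 1.31 (1.30 to 1.32), with the middle 50% of pairs between 1.07 and 1.66. Lengths, like tags, are given as deposited and include any difference in depth. In 4605 pairs (57.2%) the day 0 peak lay wholly inside the day 3 peak, and in 584 (7.25%) the reverse held. The median tag ratio of day 3 to day 0 was 2.22 (2.18 to 2.26), close to the ratio of 2.35 of all tags in peaks. The middle 50% of pairs lay between 1.47 and 3.20, and 653 pairs (8.11%) had fewer tags on day 3 in spite of the larger total. Across the pairs, tags of the 2 days had a Spearman correlation of 0.42 and lengths one of 0.46. The ranks by the authors' score within each list had one of 0.18, over the same 8053 pairs, which share their libraries. The order of regions by score thus had little in common between days even where both lists hold the region.

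**Figure D2:**
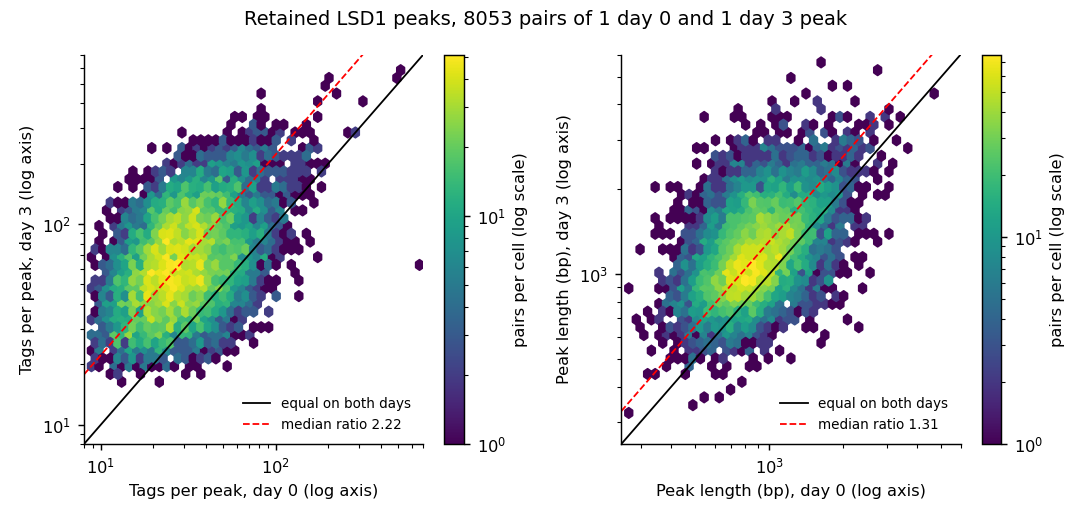
Tags (left) and length in bp (right) of the 8053 pairs on day 0 (horizontal) and day 3 (vertical), on log axes, with colour giving the number of pairs per cell on a log scale. Most pairs lie above the solid line of equality and scatter around the dashed line of the median ratio, 2.22 for tags and 1.31 for length; 1 pair lies beyond the tag axes.

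Pairs that ranked high on day 0 had the smallest tag ratios. In the decile of pairs with the highest day 0 scores the median tag ratio was 1.26 (1.20 to 1.32) and the length ratio 1.10 (1.07 to 1.13). In the decile with the lowest scores the tag ratio was 2.98 (2.81 to 3.14) and the length ratio 1.53 (1.49 to 1.57). Day 0 tags are the denominator of the ratio and also bear on the score, and a weak day 0 peak enters as a pair only if the day 3 list holds it. The trend over deciles is therefore partly set by how the ratio is built.

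The strongest shared regions were chosen as the 10 whose worse rank by score of both days was best, so that all rank high in both lists. They were led by chr21:9825340-9827704, which held 2704 tags on day 0 and 3197 on day 3 at rank 1 in both lists. The authors' fold for it was only 8.47 on day 0 and 11.78 on day 3, below the list medians of 9.3 and 17.05. The region chr1:156185832-156186785 held 499 and 590 tags at rank 4 on both days. The region chr19:42746644-42747791 held 171 tags at rank 11 on day 0 and 419 at rank 2 on day 3. All 10 of these regions were also in the lists of LSD1 in knockdown cells and of LSD1+8a described below. Those lists overlapped 87.6% and 35.6% of retained day 0 peaks in the highest score decile. Tag ratios of the 10 regions were between 1.18 and 2.45.

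Some regions had a narrow peak on day 0 and a broad one on day 3. Length and tag ratios were both lowest in the highest score decile above and highest in the lowest. Whether the greater lengths go with depth was not tested. The largest length ratio, 6.83, belonged to chr7:134462306-134462849, with 15 tags over 544 bp on day 0 and 185 tags over 3713 bp on day 3. The region chr7:24254121-24254613 had 15 tags over 493 bp and then 165 tags over 2859 bp. The longest pair by summed length, chr7:133430965-133435599, measured 4635 bp with 205 tags on day 0 and 4353 bp with 530 tags on day 3. Fewer regions narrowed. The smallest length ratio, 0.286, was at chr17:77783689-77785973, with 94 tags over 2285 bp on day 0 and 31 tags over 654 bp on day 3. At chr16:30708914-30710944 the values were 79 tags over 2031 bp and 30 tags over 695 bp. In the 5 pairs that narrowed most tags were also fewer on day 3, with ratios between 0.330 and 0.600.

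Summits of retained peaks stayed in place for the most part. The median distance between the summits of a pair was 67 bp (65 to 69). It was at most 50 bp in 3271 pairs (40.6%), at most 100 bp in 63.4% and at most 300 bp in 87.6%. Chromatin had been sheared to fragments of 300 to 800 bp, so most of these distances are below the length of 1 fragment. Shifts had no common direction: 4051 summits lay toward higher coordinates on day 3 and 3964 toward lower ones. Summits lay over 500 bp apart in 480 pairs (5.96%) and over 1000 bp apart in 92. These shifts were mostly in long peaks, with 0.868% of pairs over 500 bp in the decile of shortest pairs and 19.98% in the decile of longest. In the shortest decile the longer peak measured at most 838 bp, which leaves overlapping peaks little room for such shifts. The trend with length is therefore partly set by how pairs are built. The largest shift, 2430 bp, was at chr5:123122997-123123695, where a peak of 16 tags and 699 bp on day 0 lay within one of 171 tags and 3675 bp on day 3. At chr2:240195810-240198650 the summit moved 2240 bp between peaks of similar length, 2841 bp with 82 tags on day 0 and 2522 bp with 132 tags on day 3.

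**Figure D3:**
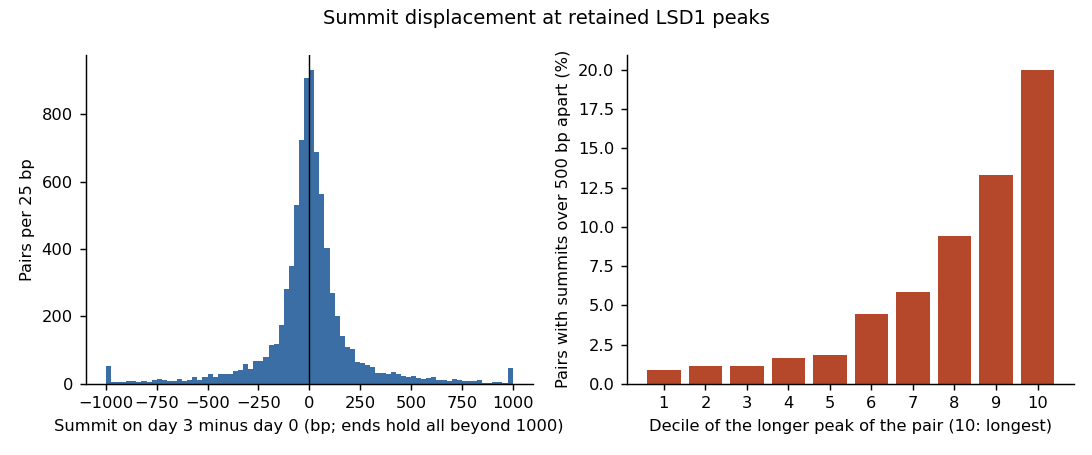
Left, the number of pairs per 25 bp of summit shift (day 3 minus day 0, bp, with all shifts beyond 1000 bp in the end bars). Right, the percentage of pairs with summits over 500 bp apart in each decile of the longer peak of the pair. Shifts centre on 0, and displaced summits reach 19.98% in the longest decile, where overlapping peaks have the most room for them.

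A day 3 peak spanned several day 0 peaks more often than the reverse. A single day 3 peak spanned 2 day 0 peaks in 184 cases and 3 in 3 cases. A single day 0 peak spanned 2 day 3 peaks in 47 cases and 3 in 1 case. Both kinds were rare, at 2.21% of retained day 3 peaks and 0.555% of retained day 0 peaks for spans of 2.

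Most lost and gained peaks were not edge shifts of a peak on the other day. The nearest day 3 peak was within 1 kb of 365 lost peaks (4.33%, 3.91 to 4.79) and within 25 kb of 3191 (37.9%). The nearest day 0 peak was within 1 kb of 480 gained peaks (3.86%, 3.53 to 4.22) and within 25 kb of 4524 (36.4%). The median distance was 39008 bp for lost and 43489.5 bp for gained peaks. Only 38 lost and 32 gained peaks lay more than 1 Mb from any peak of the other day. The peak nearest to a gained one was itself retained in 58.7% of cases, against 50.1% of day 0 peaks. For lost peaks the value was 47.7%, against 40.1% of day 3 peaks.

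On day 3 the most crowded peaks were retained more often than lone ones, while on day 0 the share had no steady order with crowding. Of the day 0 peaks with no other day 0 peak within 50 kb, 48.7% (47.4 to 49.9) were retained, and of those with at least 6 neighbours 54.6% (49.5 to 59.6), with overlapping intervals. With 1 to 5 neighbours the day 0 share was between 49.6% and 53.2%. On day 3 it was 38.9% (37.7 to 40.1) with none, 39.3% with 1, 42.2% with 4 and 50.5% (46.1 to 54.9) with at least 6. Within their own list, lost peaks had their nearest neighbour at a median of 32717 bp and retained peaks of day 0 at 29010 bp. On day 3 these were 24072 bp for gained and 22394 bp for retained peaks.

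Chromosomes differed in how much was lost and gained. Chromosome 19, the most gene-dense human chromosome, had 877 peaks on day 0 and 484 on day 3. It lost 565 (64.4%, 61.2 to 67.6) against the background of 49.9%, and gained 172 (35.5%, 31.3 to 39.98) against 59.9%. It was the only chromosome among 1 to 22 and X on which the gained share lay below the lost share with intervals that did not overlap. Its 307 pairs had a median tag ratio of 1.29 (1.22 to 1.36), the lowest of these chromosomes, and 83 of them (27.04%) had fewer tags on day 3. Chromosome 16 followed at 1.65 (1.49 to 1.80), then chromosomes 21 at 1.82 (1.62 to 2.23) and 17 at 1.82 (1.70 to 2.00). Fewer tags on day 3 were found in 13 of the 65 pairs of chromosome 21. The highest ratios were 2.50 on chromosomes 2 (2.36 to 2.60) and 18 (2.26 to 2.92). Chromosome X lost 68.7% and gained 68.9%, with a tag ratio of 2.12 (1.83 to 2.40) close to that of all pairs. Chromosomes 19 and X thus had similar lost shares with different gains and tag ratios.

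**Figure D4:**
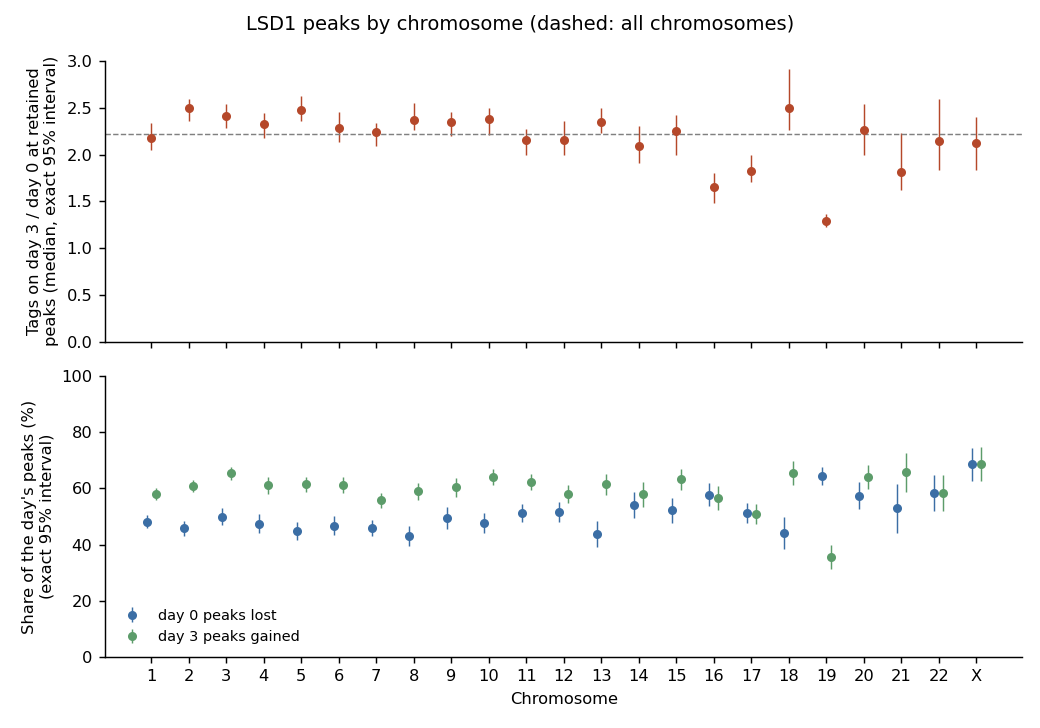
Above, the median tag ratio of day 3 to day 0 in pairs on each chromosome, with the exact 95% interval and a dashed line at 2.22 for all pairs. Below, the percentage of day 0 peaks lost and of day 3 peaks gained with exact 95% intervals; chromosome 19 has a tag ratio of 1.29, 64.4% lost and 35.5% gained.

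On chromosome 19 the strongest peaks were lost about as often as elsewhere, and the weaker ones more often. In the decile of highest day 0 scores 34.7% (28.1 to 41.7) of its peaks were lost, against 35.9% (33.5 to 38.4) elsewhere. In the lowest decile the values were 87.1% (76.1 to 94.3) and 63.9% (61.5 to 66.3), and the share was higher on chromosome 19 in 9 of 10 deciles. With the score deciles of chromosome 19, the other chromosomes would have lost 45.9%. Among pairs of 20 to 40 day 0 tags, the tag ratio was 1.45 (1.32 to 1.58, 132 pairs) on chromosome 19 and 2.32 (2.28 to 2.37, 4141 pairs) elsewhere. Its deficit was therefore present in the number of peaks and in the tags of peaks that were kept.

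Windows of 1 Mb showed where peaks thinned out and where they accumulated. Of 2633 windows with a peak on either day, 1590 held more peaks on day 3, 748 fewer and 295 as many. On chromosome 19, 45 of 57 windows (78.9%) held fewer, against 703 of 2576 (27.3%) elsewhere. At least 10 peaks fewer were found in 49 windows, of which 20 were on chromosome 19, and at least 10 more in 91 windows, of which 0 were. The tags of retained peaks went the same way. The 317 pairs in the windows with at least 10 fewer had a median tag ratio of 1.30 (1.24 to 1.41), and the 477 pairs in those with at least 10 more one of 2.73 (2.61 to 2.86). Both measures come from the same 2 libraries.

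The windows that thinned most were on chromosomes 19, 17, 7 and 16. The window from 10 to 11 Mb on chromosome 19 held 29 peaks on day 0 and 9 on day 3, with 24 lost and 3 gained. That from 50 to 51 Mb went from 28 to 9, and that from 12 to 13 Mb from 23 to 6. The window from 42 to 43 Mb on chromosome 17 went from 22 to 5, with 19 lost. Its 3 remaining pairs had a tag ratio of 2.82, in contrast to 0.966 for the 7 pairs of the chromosome 19 window from 50 to 51 Mb. On chromosome 7, the window from 99 to 100 Mb went from 23 to 6. The same difference was found on chromosome 16 from 30 to 31 Mb (31 to 14) and on chromosome 17 from 48 to 49 Mb (27 to 10). On chromosome 19 it was found from 0 to 1 and 1 to 2 Mb (25 to 8 each) and from 49 to 50 Mb (37 to 20).

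The windows that filled most were on chromosomes 6, 7, 5 and 10. The window from 40 to 41 Mb on chromosome 6 held 3 peaks on day 0, with 10, 16 and 27 tags, and 22 on day 3, with 37 to 161 tags and a median of 61. Of these 22 peaks 20 were gained, and they were spread from 40178174 to 40990637. The strongest gained peak there by score was chr6:40404293-40405839, with 114 tags and 282.8 kb from the nearest day 0 peak. The window from 69 to 70 Mb on chromosome 7 already held 18 peaks on day 0, of which 4 were lost, and held 37 on day 3, of which 24 were gained. The window from 124 to 125 Mb on chromosome 5 went from 19 to 38. That from 125 to 126 Mb on chromosome 10 went from 0 to 17, with 24 to 94 tags. A count of 0 has an exact upper limit of 3.69 peaks. The window from 133 to 134 Mb on chromosome 7 went from 10 to 27 and held day 3 peaks of up to 749 tags.

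**Figure D5:**
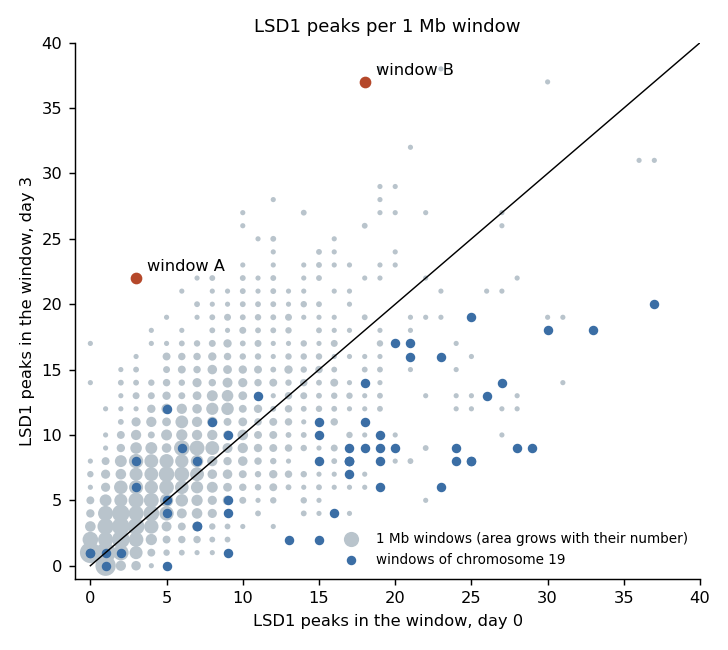
Peaks per 1 Mb window on day 0 (horizontal) and day 3 (vertical), with grey points whose area grows with the number of windows, chromosome 19 in blue and the line of equality. Window A is 40 to 41 Mb of chromosome 6 (3 and 22 peaks) and window B 69 to 70 Mb of chromosome 7 (18 and 37); 45 of the 57 windows of chromosome 19 lie below the line.

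Dense runs of peaks, defined as at least 10 peaks of 1 list with gaps of at most 25 kb, numbered 19 on each day. Runs of day 0 held 226 peaks, of which 120 were lost (53.1%, 46.4 to 59.7), near the background of 49.9%. Runs of day 3 held 210 peaks, of which 106 were gained (50.5%, 43.5 to 57.4), below the background of 59.9%. Single runs differed more than these sums. The run chr16:30538058-30670709 lost 9 of its 10 peaks, and 8 of the 10 were in the list of LSD1 in knockdown cells described below, which overlapped 42.1% of all day 0 peaks. The run chr7:99646999-99775311 lost 10 of 12, and chr1:154908576-154990530 lost 8 of 10. The run chr7:5552972-5636890 lost 9 of 12. On chromosome 19, chr19:12888583-12946468 and chr19:17325715-17448699 lost 8 of 11 each, and the 3 pairs left in each had median tag ratios of 1.00 and 1.16.

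Other runs kept almost all peaks with more tags, and these were picked after their values were seen. In the run chr6:26156462-26286218 all 15 day 0 peaks were retained. Its 9 pairs held 13 to 104 tags on day 0 and 38 to 264 on day 3, with a median ratio of 2.88 (range 2.05 to 5.50). The run chr17:55584887-55702591 kept 12 of 13, and its 8 pairs had a median ratio of 2.88. Within it, the peak chr17:55662958-55663968 went from 37 tags over 1011 bp to 245 tags over 4230 bp, with summits 229 bp apart. The run chr10:72961536-73039578 kept 9 of 10, with a median ratio of 2.52 and a median summit distance of 21 bp. All pairs of these runs, 9, 8 and 9 in number, had more tags on day 3, as had 7352 of all 8053 pairs (91.3%).

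The day 3 runs with the largest gained shares were chr11:19701078-19834645 and chr7:132070785-132185037, with 8 of 11 gained in each. The 3 pairs in each had median tag ratios of 2.98 and 2.88. The runs chr11:125922925-126036843, chr12:76099458-76248077 and chr9:134827058-134899442 gained 7 of 10 each. Their 2, 3 and 3 pairs had median ratios of 4.55, 3.10 and 3.36, and the 2 pairs behind the 4.55 were at 2.6 and 6.5. The median ratio lay above the 2.22 of all pairs in each of these 5 runs, though the lowest single pairs were at 1.91 in chr11:19701078-19834645 and 2.21 in chr7:132070785-132185037.

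A run and a single region, both picked after their values were seen, ran against the general pattern. The run chr10:29751111-29843994 was the largest of day 0, with 19 peaks of a median of only 484 bp. Of these 8 were retained and 11 lost. The 8 pairs held 23 to 157 tags on day 0 and 22 to 78 on day 3, with a median ratio of 0.590, and 2 of 8 had more tags on day 3. None of its 19 peaks was in the list of LSD1 in knockdown cells, while 9 were in the SVIL list. Over all day 0 peaks these lists overlapped 42.1% and 4.24%. On chromosome 8, chr8:23004357-23007916 held 1802 tags over 3560 bp on day 0 and was overlapped on day 3 by peaks of 40 and 34 tags. Beside it, chr8:23011175-23012869 went from 692 tags to 61, the lowest tag ratio of all pairs at 0.0882. That second region was in the LSD1+8a and SVIL lists and not in the list of LSD1 in knockdown cells. Of retained day 0 peaks in the highest score decile, these lists overlapped 35.6%, 12.6% and 87.6%. The tag counts of both chromosome 8 regions have no replicate.

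Of the 3 lists of other libraries, that of LSD1 in knockdown cells set lost and gained peaks furthest apart. This knockdown list (10248 peaks) is of LSD1 on day 0 in cells with an shRNA against LSD1+8a. The others are LSD1+8a on day 3 in control cells (3378 peaks) and SVIL, an actin-binding protein, on day 3 in control cells (1452 peaks). The knockdown list overlapped 3412 lost peaks (40.5%, 39.5 to 41.6) and 940 gained peaks (7.56%, 7.10 to 8.04). Its share was 42.1% of all day 0 and 22.2% of all day 3 peaks. Of the retained peaks of day 0 it overlapped 43.7% (42.7 to 44.8), so lost and retained day 0 peaks were close. Among the 50% of peaks with the best scores on each list the shares were 62.1% of lost and 14.1% of gained peaks. Among lost peaks in the highest score decile, 562 of 604 (93.0%, 90.7 to 94.9) were in the knockdown list, and among retained day 0 peaks of that decile 87.6% (85.4 to 89.5), so the order of lost and retained was the reverse of that over all peaks. On day 3 the highest decile held 108 of 540 gained peaks in the knockdown list (20%, 16.7 to 23.6) and 57.1% (54.5 to 59.6) of the retained ones. On chromosome 19, 311 of 565 lost peaks (55.04%, 50.8 to 59.2) were in it, against 3101 of 7856 elsewhere (39.5%, 38.4 to 40.6). The knockdown library is 1 library as well, and it shares its day with the day 0 list. Its title also carries a library number, as that of the day 0 library does and that of day 3 does not.

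Over all peaks, LSD1+8a and SVIL peaks sat more often at retained than at lost or gained peaks. The LSD1+8a list overlapped 16.3% (15.6 to 17.2) of the retained peaks of day 3, 8.49% (7.90 to 9.11) of lost and 5.24% (4.85 to 5.64) of gained peaks. Its share was 12.3% of all day 0 and 9.69% of all day 3 peaks. The SVIL list overlapped 7.01% (6.47 to 7.58), 1.66% (1.40 to 1.96) and 1.94% (1.704 to 2.197) of the same classes. Its share was 4.24% of all day 0 and 3.97% of all day 3 peaks. Most gained peaks, 10795 (86.9%, 86.3 to 87.4), were in none of the 3 other lists, against 4788 lost peaks (56.9%, 55.8 to 57.9). These 3 lists include a second LSD1 list of day 0 but no second one of day 3. Lost peaks thus had a list of the same target and day to match, and gained peaks had none. The lists differ in length, and retained peaks have more tags than the other classes, so these shares also move with peak strength. In the highest score decile LSD1+8a overlapped 27.9% (25.7 to 30.2) of retained day 3 and 23.7% (20.2 to 27.5) of gained peaks, with overlapping intervals. On day 0 it overlapped 35.6% (32.7 to 38.5) of retained and 18.4% (15.4 to 21.7) of lost peaks there. SVIL overlapped 16.6% of retained day 3 and 7.96% of gained peaks, and 12.6% of retained day 0 and 3.97% of lost peaks.

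Tag ratios of pairs differed with the other lists they were in. Pairs in the knockdown list had a median ratio of 1.72 (1.68 to 1.77, 3548 pairs) and other pairs 2.53 (2.48 to 2.58, 4505 pairs). Their median tags were 39 and 69 on the 2 days, against 24 and 60 in the others. Pairs in the LSD1+8a list had a ratio of 1.60 (1.53 to 1.66, 1313 pairs) with medians of 41 and 68 tags, against 2.33 (2.30 to 2.36) with 27 and 63 tags outside it. Pairs in the SVIL list went the other way, at 2.58 (2.43 to 2.69, 551 pairs) against 2.19 (2.15 to 2.23) outside it. Their median tags were 43 on day 0 and 111 on day 3, against 28 and 62 outside it. Pairs inside each list had more day 0 tags than pairs outside it, so these ratios are not compared at like day 0 tags.

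The highest scoring lost and gained peaks all had many tags and differed in their distance from the other day's peaks. The 10 lost ones held 87 to 217 tags, at ranks 5 to 48 of the day 0 list, and 7 of them were in the knockdown list. That list overlapped 93.0% of lost peaks in the highest score decile. The first of the 10 was chr11:94179981-94180747, with 156 tags over 767 bp and 46.3 kb from the nearest day 3 peak. The fourth, chr11:94178863-94179242, with 88 tags, lay beside it, and neither was in any other list. The second, chr18:47813795-47814800, held 217 tags, lay 110.4 kb from a day 3 peak and was in both the knockdown and the LSD1+8a list. The 10 gained ones held 130 to 231 tags, at ranks 16 to 111 of the day 3 list, and 5 were in the LSD1+8a list. That list overlapped 23.7% of gained peaks in the highest score decile. The first of these 10 was chr15:40615305-40616149, with 196 tags over 845 bp and 40.04 kb from the nearest day 0 peak. The second, chr17:32303479-32304642, held 166 tags and was the most isolated of the 10, at 224.8 kb. The third, chr13:99735908-99737472, held 188 tags only 1.66 kb from a day 0 peak and was in the LSD1+8a and SVIL lists.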

How the data were processed

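The 2 libraries are LSD1 ChIP-seq of control cells on day 0 and day 3, each with a peak list of its own. The submitters' processing notes name CASAVA, Bowtie 1.0.0 and the builds mm9 and hg19. The sources used here do not state the peak caller, its threshold, the input of each list or the reads obtained. The deposited tags per peak are a raw count in whole numbers. The deposited score, whose column lost its name, and the deposited fold enrichment, a ratio, are the authors' values and were used only within a list. The number of columns without a sample was 0.

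Peaks were classed by an overlap of at least 1 bp. Shares have exact (Clopper-Pearson) 95% intervals, medians exact order-statistic intervals and window counts exact Poisson intervals. Windows are 1 Mb by summit, and runs hold at least 10 peaks with gaps of at most 25 kb. The members and lists were chosen with earlier results of these data known. Named were the 10 shared regions whose worse rank was best, the 10 highest scoring lost and gained peaks, the extremes of length, length ratio and summit distance (5 of each), and the 5 windows and runs with the largest differences in each direction, with ties; others are said to be picked later. Deciles, shares by other list, the comparisons on chromosome 19 and the tag ranges were chosen after the data were seen. Alternatives were other overlap rules, stronger peaks only, equal list sizes, merging, and leaving out chromosome 19. Planned gene lists, promoter shares and sequences were not run, since an hg19 genome was not used here. The overlap code was tested on copies of real day 3 peaks, some with planted shifts and some moved to a made-up chromosome. Python 3.11.15, pandas 2.3.3, numpy 2.4.6, scipy 1.17.1 and matplotlib 3.10.9 were used.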

Additional observations from a re-analysis of the deposited data

How the results depend on the processing

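The shares of retained peaks moved with the rule. With a reciprocal overlap of 50%, 41.4% of day 0 and 33.6% of day 3 peaks were retained, with a length ratio of 1.25 and a tag ratio of 2.05. With edges at most 1 kb apart the values were 52.3%, 42.4% and a summit distance of 70 bp. With summits at most 300 bp apart they were 43.0%, 35.0% and 55 bp. In the upper 50% of each list by score they were 38.6%, 31.1%, 57.5 bp, 1.29 and 2.33. With at least 20 tags they were 55.9%, 32.5%, 1.25 and 2.03. With equally many top-scoring peaks from each list they were 44.1%, 43.2%, 1.33 and 2.37, where shares of equally long lists must lie close together. Merging within 1 kb gave 40.9% on day 3. Leaving out chromosome 19, chosen after the data were seen, gave 50.9% on day 0, 1.32 and 2.27. The tag ratio on chromosome 19 was 1.24 to 1.34 over 8 alternatives. Retained peaks were longer than lost and gained ones in 10 of 10 settings, and lost peaks were in the knockdown list more often than gained ones in 10 of 10. No paired analysis was possible because each day has 1 sample. Without library totals, tag ratios cannot be scaled to depth, and a peak just under the threshold cannot be told from an absent one.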

Other observations

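The lost peak with the most tags was chr1:121484006-121485545, with 1263 tags over 1540 bp on day 0. The authors' fold for it was only 2.13, its rank by score was 6205, and it was in none of the other lists. The largest tag ratio among the pairs was 12.6, at chr6:51442727-51443329, with 12 tags on day 0 and 151 on day 3 and summits 994 bp apart. At chr10:50871297-50872091 tags went from 19 to 234 and the rank by score from 11379 to 38, with summits 65 bp apart. The score had a ceiling of 3100, shared by 3 peaks on day 0 and reached by 1 on day 3, so the order among those peaks is not given by the score.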
